A study of Homo sapiens with 5 samples.

Results

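Aminoacyl-tRNA synthetases are the enzymes that join each amino acid to its tRNA. The mRNAs of 35 listed synthetase genes were examined in TF-1 cells with or without a knockout of *MTSS1*: 19 genes for enzymes of the cytosol and 16 for enzymes of the mitochondria. Members were chosen by gene name and matched to Ensembl identifiers, and all 35 were found among the 27328 genes of the count table. All 35 also passed the filter on low counts that left 14391 genes to be tested. TF-1 cells, a human line from AML with erythroid and myeloid features, were grown with GM-CSF. All cells had been transduced with a lentivirus carrying *Cas9* and an sgRNA. There were 2 control libraries, sgCtrl pools 1 and 2 with an sgRNA against *renilla luciferase*, and 3 knockout libraries, for which sgMTSS1_1, sgMTSS1_2, or sgMTSS1_3 had been used. Each library stands for a pool of 4 single-cell clones, those of the knockout chosen by the study for loss of the protein on immunoblots, and sgRNA and pool cannot be told apart within the knockout. Values are given in this order of the libraries throughout. Another control pool and the sgMTSS1_4 pool, which the study left out after an outlier test, were not analysed here.

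Each synthetase recognizes 1 amino acid, activates it with ATP, and passes it to the tRNAs that read its codons. Nuclear genes encode separate enzymes for the cytosol (most symbols end in 1) and the mitochondria (symbols end in 2), with exceptions: *GARS1* and *KARS1* serve both compartments, *EPRS1* joins the glutamyl and the prolyl enzyme in a single chain, and the cytosolic phenylalanyl enzyme is built from the products of *FARSA* and *FARSB*. Several cytosolic enzymes sit together in the multisynthetase complex, held by the scaffold proteins AIMP1, AIMP2, and EEF1E1. When amino acids are short or the endoplasmic reticulum is stressed, phosphorylation of eIF2α raises the transcription factor ATF4, which is known to induce many cytosolic synthetase genes together with genes of amino acid synthesis and uptake.

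The composite element bound by ATF4 and C/EBP proteins is shown first, since it is the element through which ATF4 is known to act on synthetase genes and since the window of *MARS1*, the cytosolic gene that rose in the knockout, holds it. The letters TGATGNAA were searched on both strands of RefSeq promoter windows of GRCh38.p14, each 300 bases long, with 250 bases before and 50 after a RefSeq start. This start can lie inside the longer GENCODE gene whose limits are given further on, as it does for *MARS1*. Capitals mark the match, and each window of 30 bases is written along the coding strand of its gene.
MARS1: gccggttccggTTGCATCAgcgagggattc
IARS1: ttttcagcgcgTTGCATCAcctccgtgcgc
CARS1: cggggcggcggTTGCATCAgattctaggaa
AARS1: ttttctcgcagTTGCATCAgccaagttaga
GARS1: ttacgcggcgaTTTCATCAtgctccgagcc
TARS1: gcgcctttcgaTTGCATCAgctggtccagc
NARS1: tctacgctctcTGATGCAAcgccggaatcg
The windows lie at chr12:57488053-57488082 (plus strand) for *MARS1*, chr9:92293692-92293721 (minus) for *IARS1*, chr11:3057407-3057436 (minus) for *CARS1*, chr16:70289675-70289704 (minus) for *AARS1*, chr7:30594834-30594863 (plus) for *GARS1*, chr5:33440956-33440985 (plus) for *TARS1*, and chr18:57621804-57621833 (minus) for *NARS1*. Of the 35 genes, 30 had at least 1 window, and 8 of these 30 held a match, the 7 shown and *YARS2*. The 7 shown are also in the list of known ATF4 targets used further on. *AARS2*, *LARS1*, *VARS1*, *VARS2*, and *YARS1* had no window. By window, the match occurred in 8 of 39 synthetase windows (20.5%) and in 1270 of 35116 windows in the whole table (3.62%). Of the other motifs searched, the NRF1 site occurred in the same number of synthetase windows, 8 of 39 (20.5%, against 5.78% of all windows), and the E-box CACGTG, which MYC and USF bind, in 5 of 39 (12.8%, against 7.26%). By gene, the NRF1 site occurred in 6 and the E-box in 4 of the 30. Overlapping windows of *SARS1*, *TARS1*, and *EARS2* held the same site more than once. None of the NRF1 or E-box matches in synthetase windows overlaps one of TGATGNAA. A match describes the letters only and does not show that a factor was bound in these cells.

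Libraries were made with a 3′ kit, in which reads come from near the poly(A) tail, so that the count of a gene does not grow with the length of its mRNA. Levels are given as CPM (counts scaled to a common library size with edgeR's TMM factors) with no correction for length. The libraries were amplified by PCR, and how duplicates were handled is not given in the sources used here, so that a read is not known to stand for a separate mRNA molecule. Totals were between 2849979 and 3408827 counts in the control and between 5442639 and 8854899 counts in the knockout libraries. Both controls were shallower than any knockout library, which only thinning to a common total takes away, and a level of 3 counts corresponded to 0.389 to 0.938 CPM. The targeted gene did not separate the groups: *MTSS1* was at 204 and 87.9 CPM in the control pools and at 104, 139, and 49.9 CPM in the knockout pools, so that its mRNA does not check the labels. TF-1 markers, listed as 10 genes that include *GATA1*, *CD34*, and *PTPRC*, were all detected and summed to between 1269 and 1527 CPM. Markers of fibroblasts (3 of 4 in the table, at most 1.04 CPM summed), T cells (2 of 3, at most 5.74 CPM summed), and B cells (2 of 3, at most 11.6 CPM summed) were low, as were *EPCAM* and *CDH1* (each at most 0.596 CPM), while *KRT18* was at 53.5 to 138 CPM. The number of genes that passed the test, 745 of all tested genes, fell to 111, 347, or 191 when the sgMTSS1_1, sgMTSS1_2, or sgMTSS1_3 library was left out, and was 1349 or 790 without the first or the second control. Nothing in the labels says more about how the pools of a group were grown, so that p-values measure the spread between these pools. In RNA from a pool of cells, fewer cells that express a gene and less mRNA per cell cannot be told apart.

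In the knockout, 2 of the 35 synthetase genes passed the test, and both rose: *FARS2*, which encodes the mitochondrial phenylalanyl enzyme, by 2.27 on the log2 scale (4.82-fold), and *MARS1*, which encodes the cytosolic methionyl enzyme, by 1.51 (2.85-fold). None of the 35 fell at an adjusted p-value under 0.05 in edgeR's quasi-likelihood test, and 7 of them, in either direction, had an unadjusted p-value under 0.05 (20.0%, against 23.3% of all tested genes). The 2 genes are 5.71% of the members, close to the 5.18% of all tested genes that were called in either direction (4.17% higher and 1.01% lower). DESeq2, the tool of the study, called 4 members, namely these 2 and, as lower, *IARS1* and *VARS2*. Median log2-fold changes were −0.23 over the cytosolic and −0.12 over the mitochondrial genes, beside −0.03 for all tested genes.

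**Figure D1:**
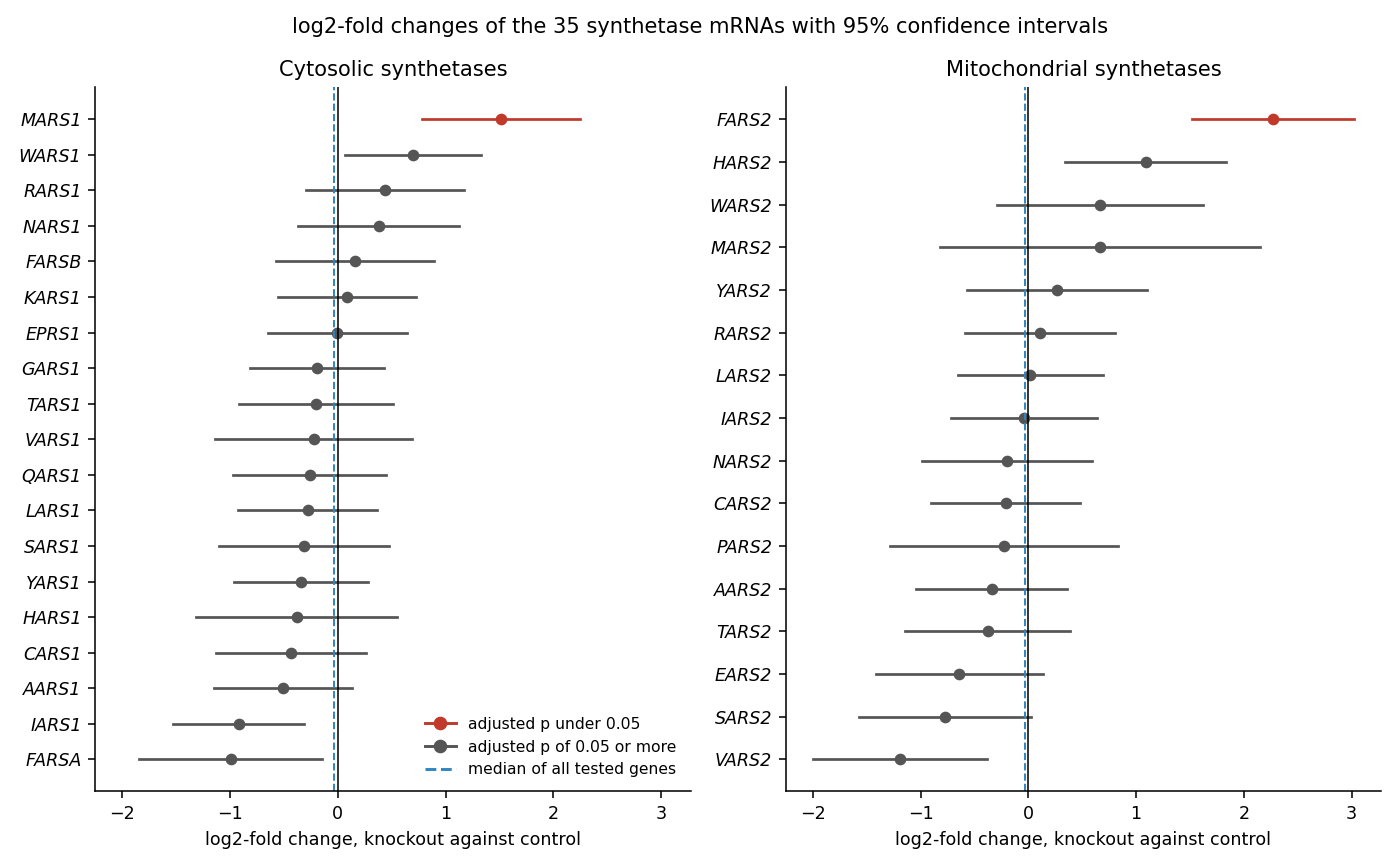
Points show the log2-fold change of each synthetase mRNA, knockout against control, and lines its 95% confidence interval from edgeR's quasi-likelihood fit. The left panel holds the 19 cytosolic and the right panel the 16 mitochondrial genes. *MARS1* and *FARS2*, in red, have an adjusted p-value under 0.05, and the dashed line marks the median of all tested genes at −0.03.

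Of the 35 genes, 13 had a positive and 22 a negative log2-fold change. All 3 knockout pools lay above both control pools for 5 genes (14.3%, against 22.2% of all tested genes) and below both for 8 (22.9%, against 19.2%). The groups overlapped for the other 22. The median standard error of a member's log2-fold change was 0.33. The 95% confidence interval stayed between −1 and 1 for 13 genes and held 0 for 28. As a whole, the 35 mRNAs took 0.474% and 0.504% of the counts of the control libraries, against 0.401%, 0.425%, and 0.401% for the knockout libraries. On the TMM scale, where each library is scaled by its own factor, the sums were 4222 and 5119 CPM for the control and 4606, 4175, and 4051 CPM for the knockout pools, and the groups overlapped.

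Phenylalanine is served by *FARS2* in the mitochondria and by *FARSA* and *FARSB* in the cytosol. *FARS2* (ENSG00000145982, chromosome 6, 5261044 to 5829192, plus strand) was at 12.2 and 11.6 CPM in the control and at 69.8, 48.9, and 53.6 CPM in the knockout pools. All 3 knockout pools were thus well above the nearly equal controls, with means of 57.4 ± 10.9 CPM (SD, n = 3) against 11.9 ± 0.404 CPM (SD, n = 2). The counts behind these levels were 39 in each control library and between 271 and 538 in the knockout libraries. On the log2 scale, the difference was 2.27 (SE 0.34, adjusted p = 0.0109, edgeR quasi-likelihood with Benjamini-Hochberg adjustment). *FARS2* passed in all 17 alternative fits, with log2-fold changes of 2.09 to 2.42, and in particular with all libraries thinned to the smallest total (2.23, adjusted p = 0.00981 in edgeR's quasi-likelihood test). *LYRM4*, whose start lies within 1 kb of that of *FARS2* on the other strand, was at 127 and 69.7 CPM in control and at 89.0, 75.8, and 70.6 CPM in knockout pools. A processed pseudogene inside *FARS2* on the opposite strand, ENSG00000217239 (chromosome 6, 5788346 to 5788699), had 6 and 1 counts in control libraries against 132, 41, and 33 after knockout, and its log2-fold change was 3.21 (adjusted p = 0.0488, same test). Where on *FARS2* its reads lay cannot be seen from counts per gene.

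*FARSA* encodes the α subunit, which holds the active site of the cytosolic enzyme. It was at 472 and 916 CPM in the control and at 252, 421, and 371 CPM in the knockout pools. All knockout pools were below both controls, but the controls were far apart, and the test was not passed at a log2-fold change of −0.997, with 0.38 as its standard error (adjusted p = 0.156, edgeR quasi-likelihood test). With control pool 1 left out, it was −1.39 and passed (adjusted p = 0.0393, same test), and with control pool 2 left out, it was −0.41 (adjusted p = 0.503). *FARSB*, for the β subunit, was at 91.6 and 52.4 CPM in the control and at 92.5, 70.2, and 78.5 CPM in the knockout pools, with a log2-fold change of 0.16 and a 95% confidence interval of −0.58 to 0.90. The groups of *FARSB* thus overlapped, although its product and that of *FARSA* form the same tetramer. The difference between them was not tested.

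*MARS1* (ENSG00000166986, chromosome 12, 57475445 to 57517569, plus strand) encodes the enzyme that charges both the initiator and the elongator tRNA for methionine. Its level was 33.5 and 33.4 CPM in the control and 122, 76.7, and 87.0 CPM in the knockout pools, all far above the nearly equal controls. Means were 95.2 ± 23.7 CPM (SD, n = 3) in knockout and 33.4 ± 0.0557 CPM (SD, n = 2) in control pools. On the log2 scale, the difference was 1.51 (SE 0.33, adjusted p = 0.0328, edgeR quasi-likelihood with Benjamini-Hochberg adjustment). It stayed between 1.28 and 1.68 in 17 alternative fits, but the adjusted p-value from edgeR's test rose to 0.0935, 0.0589, or 0.0870 when the first, second, or last knockout pool was left out and to 0.0540 without control pool 2. *MARS1* overlaps genes on the opposite strand at both ends, and whether strand was used in counting is not given in the sources used here. *DDIT3*, a transcription factor gene of the stress response that shares the 3′ end region, was at 2.26 to 6.49 CPM in all 5 libraries (log2-fold change 0.04), far less than *MARS1*. *ARHGAP9*, which overlaps the 5′ part of *MARS1*, was at 13.8 and 17.3 CPM in the control and at 48.9, 57.0, and 56.7 CPM in the knockout pools, and rose with a log2-fold change of 1.80 (adjusted p = 0.0173, edgeR quasi-likelihood test). The mitochondrial counterpart *MARS2* had 5 to 56 counts per library and overlapping groups (log2-fold change 0.67, 95% confidence interval −0.82 to 2.15). A change like that of *MARS1* lies within this interval and was not excluded.

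**Figure D2:**
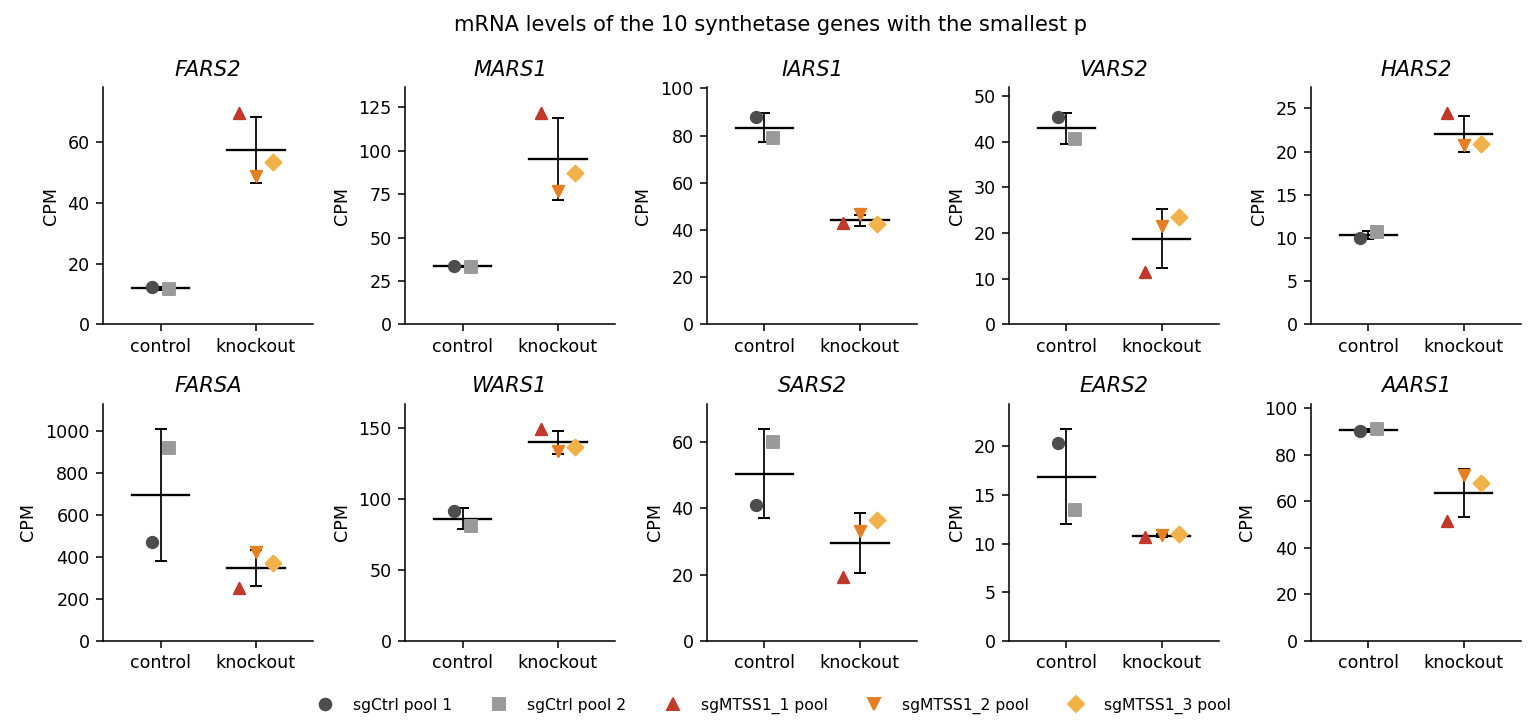
CPM of the 10 synthetase genes with the smallest p-values, by library, on linear axes that start at 0. Symbols are pools, horizontal lines means, and error bars the SD (n = 2 control, n = 3 knockout pools). *FARS2*, *MARS1*, *HARS2*, and *WARS1* are higher and the other 6 genes lower in every knockout pool than in either control.

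The other 8 of the 10 members with the smallest p-values had separate groups and adjusted p-values above 0.05 by edgeR. Isoleucine and valine are branched amino acids. *IARS1*, for the cytosolic isoleucyl enzyme, was at 87.9 and 79.0 CPM in the control and at 42.8, 46.8, and 42.6 CPM in the knockout pools. Pools within each group were close together, with a log2-fold change of −0.92 and an SE of 0.27 (adjusted p = 0.0827 in edgeR's test and 0.0437 in DESeq2). Its mitochondrial counterpart *IARS2* was at 55.3 and 49.2 CPM in the control and at 63.0, 46.4, and 43.0 CPM in the knockout pools (log2-fold change −0.04, 95% confidence interval −0.72 to 0.64). *VARS2*, for the mitochondrial valyl enzyme, was at 45.3 and 40.5 CPM in the control and at 11.4, 21.5, and 23.5 CPM in the knockout pools. It had the lowest log2-fold change of the 35 genes, −1.20 (standard error 0.36, adjusted p = 0.0866 in edgeR's test and 0.0486 in DESeq2). *VARS1*, whose cytosolic product binds the elongation factor 1 complex, was at 64.4 and 28.6 CPM in the control and at 27.0, 48.7, and 43.7 CPM in the knockout pools, and its groups overlapped.

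*HARS2* and *HARS1*, which encode the mitochondrial and the cytosolic histidyl enzyme, lie head to head on chromosome 5, and their transcribed regions overlap by a short stretch on opposite strands. *HARS2* was at 10.01 and 10.7 CPM in the control and at 24.5, 20.8, and 20.9 CPM in the knockout pools, and the groups were separate (log2-fold change 1.09, standard error 0.33, adjusted p = 0.0898, edgeR quasi-likelihood test). *HARS1* was at 15.0 and 16.4 CPM in the control and at 18.2, 8.30, and 9.40 CPM in the knockout pools. For *HARS1*, the sgMTSS1_1 pool lay above and the other knockout pools lay below the controls. *WDR55* overlaps the 3′ end of *HARS1* on the opposite strand. It was at 13.8 and 29.2 CPM in the control and at 46.6, 53.4, and 74.6 CPM in the knockout pools (log2-fold change 1.43). With the strand setting of the counting not given, the count of *HARS1* is uncertain. The 5′ part of *ZMAT2* overlaps the 3′ end of *HARS2* on the same strand. Reads there can belong to either gene, so that the count of *HARS2* is uncertain. *ZMAT2*, whose own 3′ end lies outside *HARS2*, was at 143 and 195 CPM in the control and at 308, 203, and 267 CPM in the knockout pools.

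*WARS1* encodes the cytosolic tryptophanyl enzyme and is known to be induced by interferon-γ. Its level was 91.6 and 81.1 CPM in the control and 149, 134, and 137 CPM in the knockout pools, which were close together and above both controls (log2-fold change 0.70, standard error 0.28, adjusted p = 0.173, edgeR quasi-likelihood test). *SARS2*, for the mitochondrial seryl enzyme, was at 41.0 and 59.9 CPM in the control and at 19.3, 33.04, and 36.4 CPM in the knockout pools (log2-fold change −0.77, adjusted p = 0.228, same test). *EARS2*, for the mitochondrial glutamyl enzyme, was at 20.3 and 13.4 CPM in the control and at 10.6, 10.8, and 10.96 CPM in the knockout pools (log2-fold change −0.64, adjusted p = 0.300, same test). Knockout pools were nearly equal for *EARS2* and the controls were not, while *SARS2* varied within both groups. The 5′ part of *GGA2* overlaps the 3′ end of *EARS2* on the same strand, so that the count of *EARS2* is uncertain. The level of *GGA2* was 46.3 and 54.8 CPM in the control and 63.6, 70.4, and 65.4 CPM in the knockout pools. *AARS1*, for the cytosolic alanyl enzyme, was at 90.0 and 90.9 CPM in the control and at 51.8, 71.3, and 67.7 CPM in the knockout pools (log2-fold change −0.51, adjusted p = 0.320, same test). Of these 10 genes, the sgMTSS1_1 pool was the knockout pool farthest from the controls for 9, all but *IARS1*. This pool also had the deepest library, with 8854899 counts. Without this pool, *FARS2* was the only member that passed in edgeR's test (log2-fold change 2.09, adjusted p = 0.0454). The same held without the sgMTSS1_2 pool (2.41, adjusted p = 0.0340, same test) and without the sgMTSS1_3 pool (2.36, adjusted p = 0.0374).

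Levels of the other 25 genes overlapped between the groups in 22 cases. *RARS1* (log2-fold change 0.44) was higher, and *YARS1* (−0.34) and *LARS1* (−0.28) were lower, in every knockout pool than in either control, with adjusted p-values of 0.464, 0.4999, and 0.603 in edgeR's quasi-likelihood test. Among the abundant cytosolic mRNAs, *TARS1* for the threonyl enzyme was at 593 and 824 CPM in the control and at 683, 569, and 596 CPM in the knockout pools. *EPRS1* was at 330 and 283 CPM in the control and at 326, 302, and 289 CPM in the knockout pools, with a log2-fold change of −0.01 and a 95% confidence interval of −0.65 to 0.64. *KARS1* and *GARS1*, which serve the cytosol and the mitochondria, had log2-fold changes of 0.08 (95% confidence interval −0.56 to 0.72) and −0.19 (−0.82 to 0.43). The intervals of these 3 genes lie within −1 and 1. *NARS1* (0.38), *SARS1* (−0.32), *QARS1* (−0.26), and *CARS1* (−0.44) complete the cytosolic set. Of the mitochondrial genes, *WARS2* had a log2-fold change of 0.67, *YARS2* of 0.27, *RARS2* of 0.11, and *LARS2* of 0.02. *NARS2* (−0.20), *CARS2* (−0.21), *PARS2* (−0.23), *AARS2* (−0.34), and *TARS2* (−0.38) were on the other side of 0, and none of these mitochondrial genes had separate groups.

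**Figure D3:**
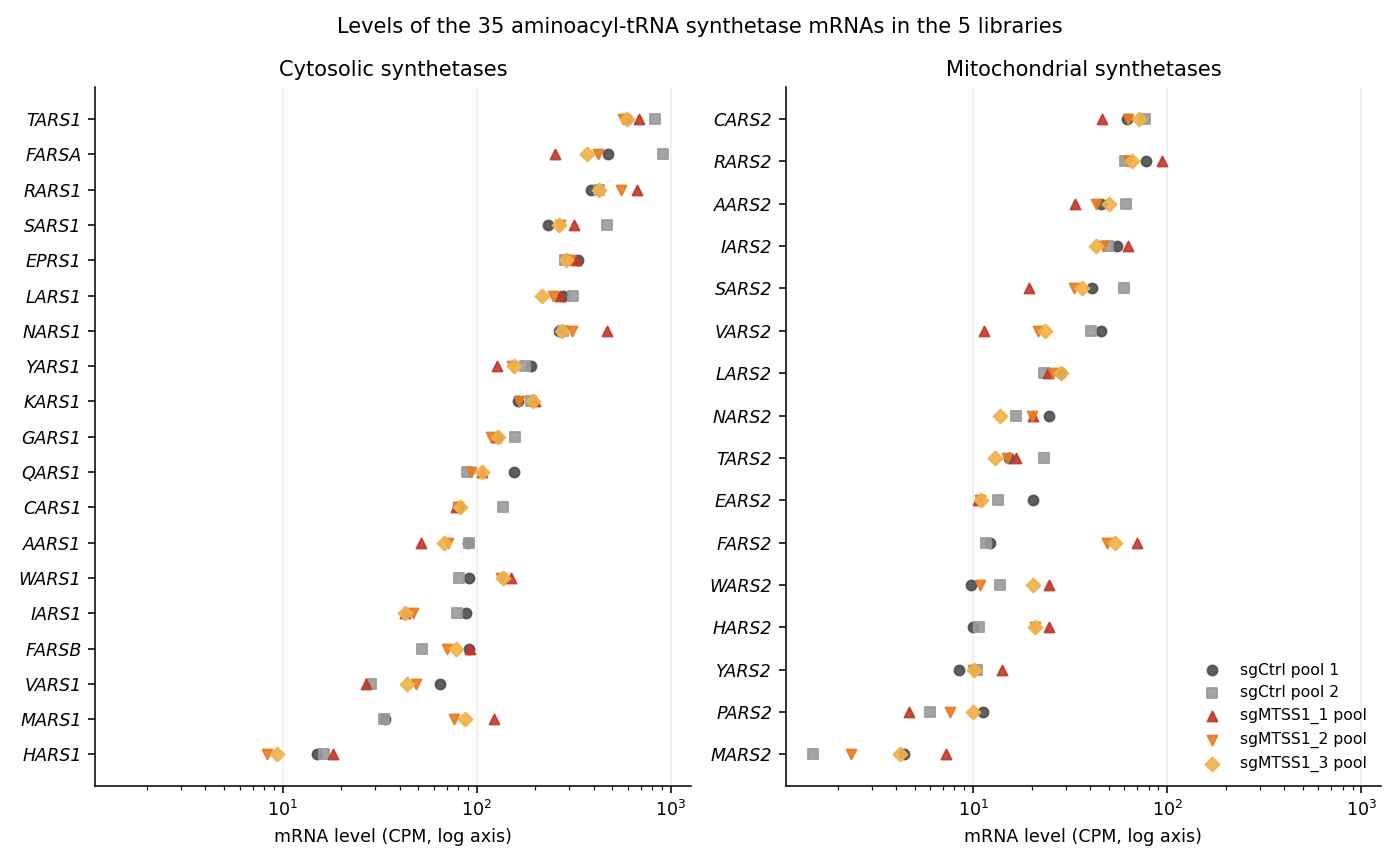
mRNA levels in CPM (log axis) of the 19 cytosolic and 16 mitochondrial synthetase genes, ordered by their mean in the control pools, with 1 symbol per library. Cytosolic genes lie between 8.30 and 916 CPM and mitochondrial genes between 1.49 and 93.5 CPM, and the symbols of *FARS2* and *MARS1* stand farthest apart between the groups.

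mRNAs of the mitochondrial enzymes were less abundant. In CPM, the median of the control means was 143 CPM over the 19 cytosolic and 20.0 CPM over the 16 mitochondrial genes, and the medians of the knockout means were 140.1 and 20.4 CPM. The ratio of the mitochondrial to the cytosolic mRNA for the same amino acid was taken within each library for 17 gene pairs. It was higher in every knockout pool than in both controls for 5 pairs, lower for 2, and overlapped for 10. The share of separate groups among ratios of other gene pairs was not computed. Of single tested genes, 22.2% were higher and 19.2% lower in every knockout pool. *FARS2* enters the 5 pairs with both *FARSA* and *FARSB*, and *EPRS1* is the partner of both *EARS2* and *PARS2*, so that not all pairs are separate. The largest difference was that of *FARS2* against *FARSA*, with log2 ratios of −5.27 and −6.30 in control pools and of −1.85, −3.10, and −2.79 after knockout. For *HARS2* against *HARS1*, the log2 ratio was below 0 in control pools (−0.58 and −0.61) and above 0 after knockout (0.43, 1.32, and 1.15). The counts of both genes are uncertain, since other genes overlap their 3′ ends. *IARS2* against *IARS1* went from −0.67 and −0.68 to 0.56, −0.01, and 0.01. *VARS2* against *VARS1* went the other way, from −0.51 and 0.50 to −1.24, −1.18, and −0.89. Ratios share the members' own values and add no independent observation.

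**Figure D4:**
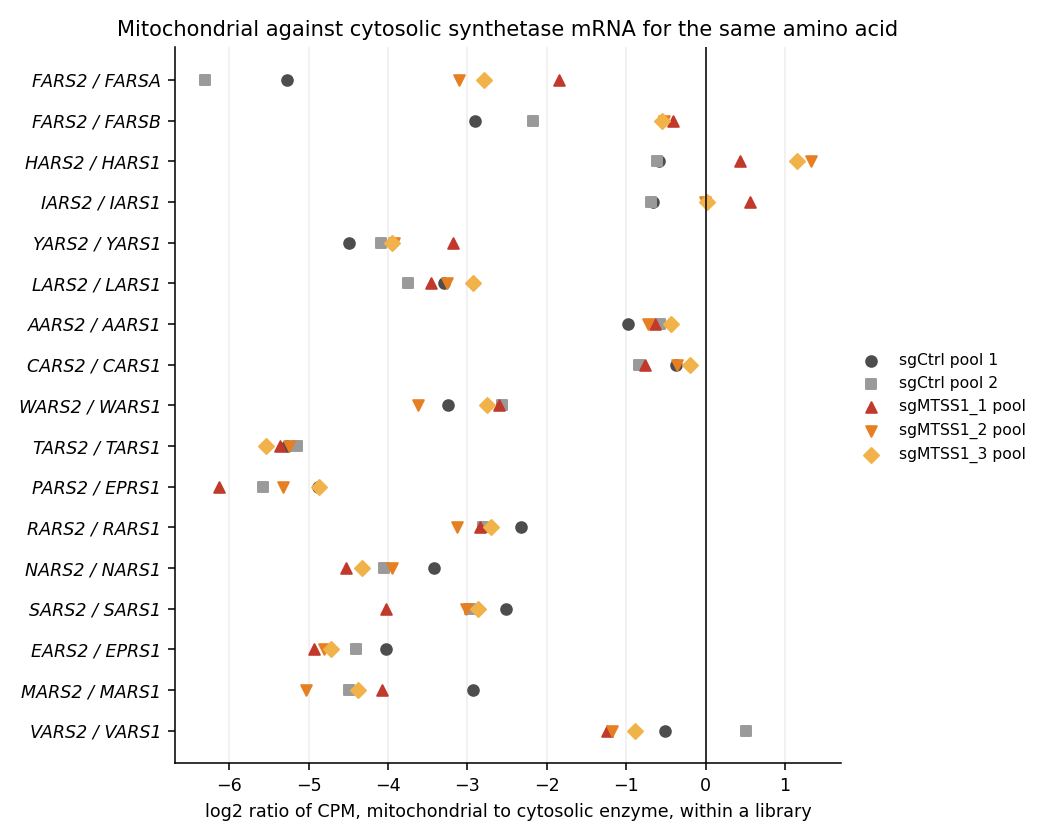
log2 ratio of the mRNA level of the mitochondrial to that of the cytosolic enzyme within each library, for 17 gene pairs ordered by the difference between the group means. Symbols are pools, and at 0 both mRNAs are equally abundant. *FARS2* against *FARSA* and against *FARSB* shift to the right in all 3 knockout pools, and *VARS2* against *VARS1* shifts to the left.

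Synthetases fall into a pair of classes with unrelated catalytic folds. Among 18 class I enzymes, 1 (*MARS1*) rose (5.56%, against 5.18% of all tested genes called) and the median log2-fold change was −0.12. Among 16 class II enzymes, 1 (*FARS2*) rose (6.25%) and the median was −0.21. *EPRS1* holds a domain of each class and was counted in neither. Of the 7 listed enzymes of the multisynthetase complex, *MARS1* rose (14.3%) and none fell in edgeR's quasi-likelihood test. In that test, 2 of the 7 had an unadjusted p-value under 0.05 (28.6%, against 23.3% of all tested genes). The median of the 7 was −0.01, and *IARS1* (−0.92) marked the other end of their range. None of the 3 scaffold genes of the complex passed, although *AIMP2* was at 10.6 and 6.56 CPM in the control and at 1.69, 4.15, and 2.44 CPM in the knockout pools (log2-fold change −1.65, adjusted p = 0.0956, edgeR's test). The 3 values in knockout pools were all below the controls, and rested on 13 to 23 counts. The 3′ end of *AIMP2* overlaps that of *EIF2AK1* on the opposite strand. *EIF2AK1* was far more abundant, at 179 and 180 CPM in the control and at 166, 161, and 180 CPM in the knockout pools. With the strand setting of the counting not given, the count of *AIMP2* is uncertain. *EEF1E1* (0.92) was higher in every knockout pool, and the groups of *AIMP1* (0.42) overlapped.

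A set of 11 cytosolic synthetase genes is listed as known targets of ATF4. Of these, *MARS1* rose (9.09%, against 5.18% of all tested genes called) and none fell in edgeR's test. In that test, 3 of the 11 had an unadjusted p-value under 0.05 (27.3%, against 23.3%), and 8 had a negative log2-fold change. Their median was −0.20, beside −0.24 for the 8 cytosolic genes outside the list. The 8 genes with TGATGNAA in their promoter window had log2-fold changes from −0.92 (*IARS1*) to 1.51 (*MARS1*) and a median of −0.20, beside −0.02 for the 22 genes with a window and no match. Of these 8, all but *YARS2* are also in the list of 11, so that the comparisons share most of their genes. The windows of *MARS1* and *IARS1* hold the same 8 letters, which begin 4 and 13 bases before the RefSeq start that each window was built on, and their mRNAs lay on opposite sides of the controls. *ATF4* itself was at 335 and 1112 CPM in the control and at 573, 593, and 656 CPM in the knockout pools, all between the 2 controls.

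Other genes around the synthetases were read from lists of known function. For comparison with the counts below, 5.18% of all tested genes were called and 23.3% had an unadjusted p-value under 0.05. Among *ATF4* and its other targets, 1 of 12 tested genes rose and none fell (edgeR's test, in which 3 had an unadjusted p-value under 0.05). This was *PSAT1*, an enzyme of serine synthesis, at 10.6 and 4.47 CPM in the control and at 35.8, 22.0, and 24.7 CPM in the knockout pools (log2-fold change 1.87, adjusted p = 0.0461, edgeR's quasi-likelihood test). *TRIB3*, an inhibitor of ATF4, had a log2-fold change of 1.34 and *MTHFD2*, an enzyme of mitochondrial folate metabolism, of 1.26, with adjusted p-values of 0.0691 and 0.103 in the same test. *ASNS*, asparagine synthetase, had 0 to 4 counts per library and was not tested. Of 9 tested amino acid carriers, 1 rose and none fell: *SLC1A5*, a carrier of glutamine and other neutral amino acids, was at 70.4 and 59.9 CPM in the control and at 257, 327, and 378 CPM in the knockout pools (log2-fold change 2.30, adjusted p = 0.0109, edgeR's test). For the arginine and lysine carrier *SLC7A1* (0.67) and the neutral amino acid carrier *SLC38A2* (0.44), adjusted p-values were 0.342 and 0.404. Of the 9 carriers, 1 had an unadjusted p-value under 0.05 (11.1%). None of the 4 kinases of eIF2α passed in edgeR's test, and 1 had an unadjusted p-value under 0.05, *EIF2AK3* (1.37, adjusted p = 0.121).

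**Figure D5:**
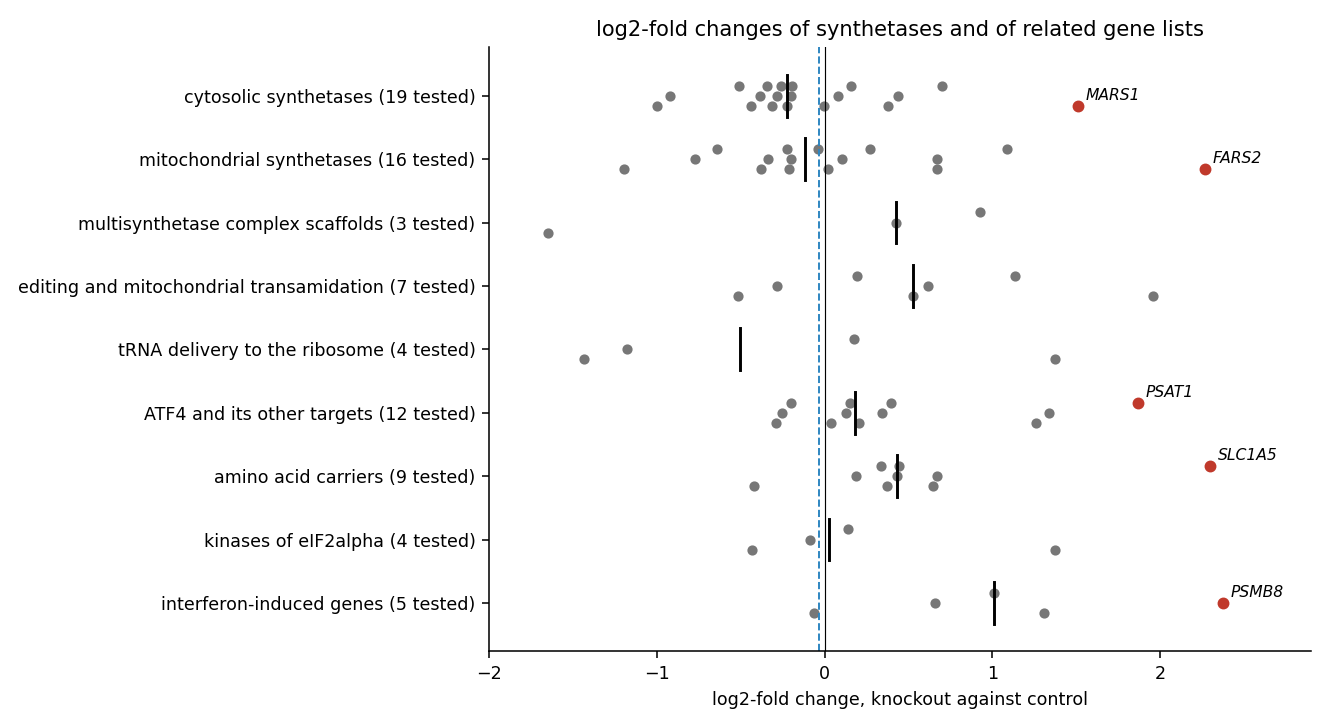
log2-fold changes, knockout against control, of the tested genes of each list, with 1 point per gene, the median as a black bar, and the median of all tested genes as a dashed line. Red points have an adjusted p-value under 0.05, which holds for *MARS1*, *FARS2*, *PSAT1*, *SLC1A5*, and *PSMB8*.

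Mitochondria have no glutaminyl-tRNA synthetase of their own. EARS2 places glutamate on the tRNA for glutamine, and an amidotransferase made of the products of *QRSL1*, *GATB*, and *GATC* converts it. *GATC* was at 24.4 and 15.2 CPM in the control and at 38.65, 40.1, and 51.5 CPM in the knockout pools (log2-fold change 1.13, adjusted p = 0.0873, edgeR's test), and *QRSL1* (−0.52) and *GATB* (0.19) had overlapping groups with adjusted p-values of 0.404 and 0.789. *MTFMT*, which adds the formyl group to the methionine of the mitochondrial initiator tRNA, was at 4.69 and 1.49 CPM in the control and at 17.4, 10.1, and 8.35 CPM in the knockout pools (log2-fold change 1.96, adjusted p = 0.0822, edgeR's test). None of the 7 tested genes of editing and transamidation passed in that test, and 2 had an unadjusted p-value under 0.05 (28.6%, against 23.3% of all tested genes). Charged tRNAs are carried to the ribosome by elongation factors, and none of 4 tested genes of that list passed in edgeR's test. Of these 4, 3 had an unadjusted p-value under 0.05 (75.0%, against 23.3% of all tested genes). *EEF1A1*, the carrier itself, had a log2-fold change of −1.43 (adjusted p = 0.0632, edgeR's test), and *EEF1B2* and *EEF1D*, subunits of its exchange factor, of 1.37 and −1.18 (0.0948 and 0.109). *EEF1A1* has many near-identical copies in the genome, and reads that mapped to more than 1 place had been removed. Of 5 tested interferon-induced genes, listed because of *WARS1*, 1 rose and none fell: *PSMB8*, a subunit of the immunoproteasome, had a log2-fold change of 2.37 (adjusted p = 0.0364, edgeR's test), while *PSMB9* (1.31) and *IRF1* (1.01) did not pass (0.209 and 0.150).

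Across the 35 genes, the GC content of the longest transcript and the log2-fold change had a Spearman's rho of −0.436, and with offsets for GC content and length in the fit, the rho was −0.507. Across all 14353 tested genes with a gene model it was −0.0196. These points share the same 5 libraries and are no replicates. The 5 synthetase genes with a GC content above 55%, a limit set after the values were seen, all had negative log2-fold changes, with a median of −0.77, and these are *FARSA*, *VARS1*, *AARS2*, *SARS2*, and *VARS2*. For the 3394 tested genes above that limit, the median was −0.10. Whether base composition has a part in the values of these genes was not tested.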

How the data were processed

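Whole-number counts of reads per Ensembl gene, with no normalization, were deposited by the authors as a single table. Per the labels and the study's methods, QuantSeq 3′ (FWD) libraries were sequenced as single-end reads, aligned to GRCh38 with HISAT2 2.1.0, and freed of reads without a unique position with SAMtools 1.10. The counting program, annotation release, strand setting, and handling of PCR duplicates are not given in the sources used here. Genes with near-identical copies lose reads by this filter.

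Counts were fitted in R 4.3.3 with edgeR 4.0.16 (filterByExpr with a minimum count of 10, TMM, quasi-likelihood test, condition only, all 5 libraries), and p-values were adjusted by Benjamini-Hochberg over all 14391 tested genes. Genes passed at an adjusted p-value under 0.05. All 745 such genes also had a log2-fold change beyond 1 in size, the further limit of the study. Standard errors come from the fold change and the F statistic. On simulated data with the means and sizes of these libraries, the test called 73% of 200 genes changed 4-fold, and 3 unchanged genes, among 13964. The simulated spread between pools depended only on the level of a gene. Genes or pools that vary more than this were not simulated, so that these numbers need not hold for the real libraries. Alternatives used DESeq2 1.42.0, limma 3.58.1, and mgcv 1.9.3. Gene models come from GENCODE and promoters from RefSeq. Figures were drawn with matplotlib 3.10.9.

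The members and lists were chosen with earlier results of these data known. Values in every library are given for the 10 synthetase genes with the smallest p-values, and up to 3 genes of each other list, those with the smallest p-values, are named. Further genes (neighbours, partners, *FARSB*, *TARS1*, *EPRS1*, *ATF4*, *ASNS*, and *DDIT3* among them) were named after their values were seen. *EEF1G*, *STC2*, and *CXCL10* were not analysed here.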

Additional observations from a re-analysis of the deposited data

How the results depend on the processing

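The number of called genes depended on the libraries and the tool. Over all tested genes it was 745, and 111 to 1349 with 1 library left out, 1367 in DESeq2, and 1374 with no filter on low counts. Among the synthetases it was 2, and 1 to 3 with 1 library left out, 4 in DESeq2, and 1 with the replicate block and offsets for GC content and length together. Over 44 tested genes of the pathway lists it was 3, and 1 to 8 with 1 library left out, 9 in DESeq2, 9 with no filter, and 5 with the replicate block. The share of higher genes among those called, 80.5%, was 68.0% without control pool 1 and 96.4% without the sgMTSS1_1 pool. The median of the cytosolic genes, −0.23, was −0.14 with at least 10 counts in every library, −0.37 with library size alone, −0.079 with no filter, −0.31 with upper quartile factors, and −0.080 with the block and offsets. With these settings, the median of all tested genes was 0.00376, −0.17, 0.11, −0.11, and 0.04. With 1 library left out the cytosolic median was between −0.28 and −0.085. That of the mitochondrial genes, −0.12, was −0.26 with library size alone, 0.030 with no filter, 0.070 with the block and offsets, and between −0.084 and 0.13 with 1 library left out. Of the 35 genes, 20 kept the sign of their log2-fold change in every alternative tested, and 30 were called in none.

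Numbers 1 and 2 of the sgRNAs and pools occur in both groups, but nothing says that pools of the same number were handled together. Deviations from the group means had a Pearson's r across genes of 0.20 for number 1 and 0.11 for number 2. With the number as a replicate block, *VARS2* passed (log2-fold change −1.45, adjusted p = 0.0365 in edgeR's quasi-likelihood test), and *FARS2* (2.29) and *MARS1* (1.53) still did. The sgMTSS1_3 pool has no control of its number, so that it adds nothing to the difference in a fit with the block. Such a fit compares pools of numbers 1 and 2 only. With the sgMTSS1_3 pool left out and no block, *VARS2* did not pass (log2-fold change −1.35, adjusted p = 0.165, same test). With the block and the offsets, *MARS1* was at an adjusted p of 0.0537. The causes of these shifts were not tested. Intervals and depth cover counting error and the spread between pools only. Changes in genes with few counts, such as *MARS2* (standard error 0.66) and *PARS2* (0.47), could be missed unless they were large. Among other genes with few counts, *PSAT1*, with 34 and 15 control counts, passed (log2-fold change 1.87, adjusted p = 0.0461, edgeR's quasi-likelihood test). *MTFMT*, with 15 and 5 control counts, did not (1.96, adjusted p = 0.0822, same test).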
